A study of Mus musculus with 6 samples.

Results

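Matrix metalloproteinases and their tissue inhibitors were followed in hearts of dystrophic mice given vehicle or setanaxib. The members are 10 genes chosen by symbol: the metalloproteinases Mmp2, Mmp3, Mmp9, Mmp12, Mmp14 and Mmp15 and the inhibitors Timp1, Timp2, Timp3 and Timp4. Each symbol matched 1 entry of the 50385 genes in the table, and all 10 passed the filter on low counts that left 20472 genes for testing. The 6 libraries are from hearts of male Mdx/Utrn dKO mice, which lack functional dystrophin and its relative utrophin and serve as a severe model of Duchenne muscular dystrophy. Mice were 2 to 3 months old when treatment began and were gavaged every day for 12 weeks. The 3 vehicle libraries are from mice given corn oil, and the 3 setanaxib libraries from mice given the Nox4 inhibitor at 60 mg/kg/day. Where 3 values are listed for a group they run from replicate 1 to replicate 3. Both groups carry the same double mutation and no healthy heart is among the libraries, so no level below can be called raised or normal for a mouse heart. The sample titles carry a number each, but nothing says what it counts, and p-values measure only the spread between these libraries.

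Matrix metalloproteinases (MMPs) are zinc-dependent enzymes that cut collagens, elastin, laminins, proteoglycans and other proteins outside the cell. They are made as inactive proenzymes, and an active enzyme is blocked when a tissue inhibitor of metalloproteinases (TIMP) occupies its catalytic site. In the heart both families are made by fibroblasts, macrophages, endothelial cells and heart muscle cells, and they govern how matrix is removed and laid down during fibrosis. The transcript level of a proenzyme or inhibitor is not a measure of enzyme activity.

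Libraries held 110803307 to 154003318 estimated counts. Levels are counts-per-million units (CPM) scaled between libraries by TMM, the trimmed mean of M values. The 8 heart muscle markers were present in every library and summed to 32660 to 46040 CPM. Setanaxib replicate 3 stood apart. Its 6 lung and airway markers summed to 872 CPM where the remaining libraries had 0.102 to 27.1 CPM, and the 4 atrial markers in the table summed to 2991 CPM, against 79.7 to 585 CPM. The members' fold changes and the counts over gene lists are therefore also given without that library, and the part of other tissue in any result was not tested. Vehicle replicates 1 and 3 also held such RNA. Their lung and airway sums were 6.10 and 27.1 CPM, with the atrial gene Myl7 at 23.3 and 21.4 CPM. Vehicle replicate 2 and setanaxib replicates 1 and 2 had at most 0.493 CPM for that sum and at most 1.33 CPM of Myl7. Without setanaxib replicate 3, all 4 atrial and all 3 lung and airway markers tested were lower with setanaxib. That fit therefore still compared unequal amounts of such RNA.

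No member passed edgeR's quasi-likelihood test adjusted over all genes, where 1 of 20472 genes (0.00488%) passed. Of the members 6 had a log2 fold change (setanaxib minus vehicle) below 0, which held for 48.4% of all genes, and 4 were above 0. The median over the members was -0.22, beside 0.01 over all genes. At an unadjusted p under 0.05, 2 of 10 members, Timp1 and Mmp2, were lower with setanaxib and 0 were higher. By that rule 4.69% of all genes were lower, and 770 of the 20472 genes were higher. Setanaxib libraries lay wholly below vehicle libraries for 3 members, Timp1, Mmp3 and Mmp12 (9.46% of all genes), and wholly above for 0 (8.11% of all genes). Mmp12 was listed at 0 in setanaxib replicates 1 and 3, which can be a failed estimate. DESeq2 called 1 member, Timp1, and 2.31% of the genes it tested. Without setanaxib replicate 3, 5 members were lower at an unadjusted p under 0.05 (Mmp2, Mmp3, Mmp14, Timp1 and Timp2), beside 7.91% of all genes in that fit. There 1 member was higher (Timp4), a direction that was not counted over all genes, and again 0 passed after adjustment.

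**Figure D1:**
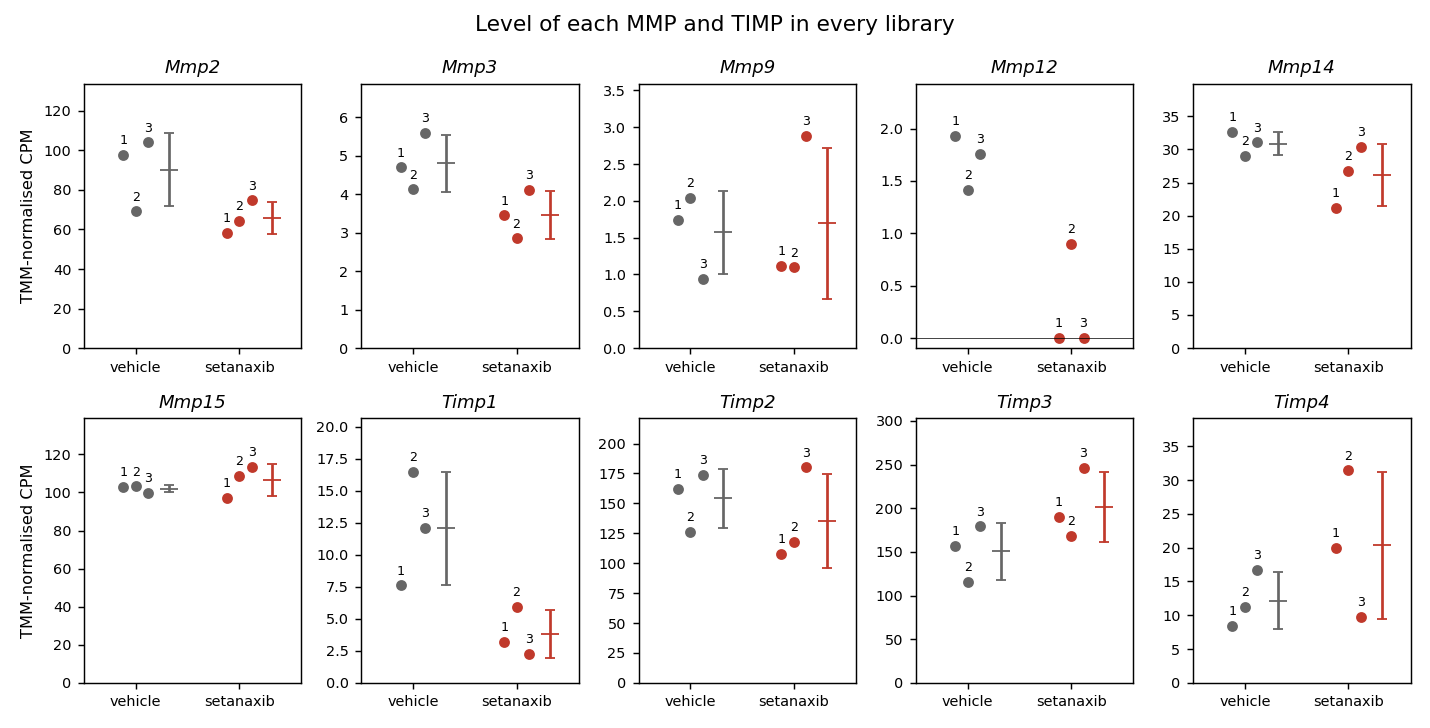
TMM-normalised CPM (vertical axes, linear) of each member in the 3 vehicle (grey) and 3 setanaxib (red) libraries. Digits are replicate numbers and bars show mean ± SD, left out for Mmp12 because 2 libraries are listed at 0; Timp1, Mmp3 and Mmp12 are the members whose groups do not overlap.

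Timp1, the inducible secreted inhibitor of most soluble MMPs and a gene that activated fibroblasts and stressed tissue turn on, had the lowest p of the members. It was at 7.60, 16.4 and 12.1 CPM in vehicle hearts and 3.21, 5.90 and 2.28 CPM in treated hearts. Every setanaxib library was thus below every vehicle library, though vehicle replicate 1 and setanaxib replicate 2 were close. The means were 12.0 ± 4.42 and 3.80 ± 1.88 CPM (SD, n = 3), a log2 fold change of -1.67 (SE 0.43). edgeR's adjusted p was 0.416 and DESeq2's 0.0137. Without setanaxib replicate 3 the log2 fold change was -1.40 (edgeR adjusted p = 0.295). Timp1 lies inside the gene of the neuronal synapsin Syn1 on the opposite strand, and no exon of the pair overlaps in GENCODE M21; Syn1 was at 0.395 to 0.862 CPM.

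The sequence upstream of the start is shown for the 3 members whose groups did not overlap. The stretches are RefSeq's, on GRCm38.p6, and each gives the 200 bases before the start, 5′ to 3′; Timp1 is chrX:20869966-20870165, Mmp3 chr9:7445622-7445821 and Mmp12, at the downstream of its 2 listed starts, chr9:7347174-7347373, all on the plus strand. Capitals mark matches on either strand to the AP-1 motif TGANTCA, the PEA3 (ETS factor) motif AGGAAG, the GC box GGGCGG and the TATA box TATAAA, none of which overlap here.
Timp1: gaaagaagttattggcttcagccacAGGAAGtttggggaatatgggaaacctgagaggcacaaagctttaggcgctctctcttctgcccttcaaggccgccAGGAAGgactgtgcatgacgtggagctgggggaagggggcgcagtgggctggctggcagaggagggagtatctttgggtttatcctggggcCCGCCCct
Mmp3: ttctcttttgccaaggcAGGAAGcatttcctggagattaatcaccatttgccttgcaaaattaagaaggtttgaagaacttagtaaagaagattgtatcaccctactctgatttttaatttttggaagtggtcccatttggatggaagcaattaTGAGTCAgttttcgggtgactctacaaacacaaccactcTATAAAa
Mmp12: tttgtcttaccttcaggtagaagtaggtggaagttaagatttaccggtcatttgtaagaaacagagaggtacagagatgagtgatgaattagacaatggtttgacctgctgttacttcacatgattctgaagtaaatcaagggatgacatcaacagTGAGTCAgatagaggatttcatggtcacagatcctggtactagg

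Mmp3 holds an AP-1 match that begins 46 bases before its start and a TATA box that begins 7 bases before it. Mmp12 holds an AP-1 match 44 bases before the start shown and no TATA box of these letters. The window of its other start, upstream, holds no AP-1 match and 1 PEA3 match. Timp1 holds neither; it has PEA3 matches 175 and 99 bases before its start and a GC box, on the minus strand and so printed as its complement, 8 bases before it. The table has 9 start windows for 8 of the 10 members. Over the 250 bases before the start, AP-1 occurred in 2 of these 9 windows (6.75% of 32851 RefSeq windows), the TATA box in 1 (12.4%), the GC box in 5 (32.7%) and PEA3 in 6 (29.5%). The related letters TGAGTAA were in 0 of 9 (2.25% of all windows). A match describes letters only and is no evidence that a factor binds there.

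For the other inhibitors the groups overlapped. Timp3, which binds to the matrix and also blocks ADAM and ADAMTS proteases, was at 157, 115 and 179 CPM in vehicle hearts and 190, 168 and 246 CPM in treated hearts. Vehicle replicates 1 and 2 lay below all treated hearts, and vehicle replicate 3 lay above setanaxib replicate 2. Its means were 151 ± 32.4 and 201 ± 40.1 CPM (SD, n = 3), a log2 fold change of 0.42 (standard error 0.21; adjusted p = 0.665 by edgeR), 0.25 without setanaxib replicate 3 and 0.26 without vehicle replicate 2. Across the libraries Timp3 was lowest in vehicle replicate 2, where Timp1 was highest, and highest in setanaxib replicate 3, where Timp1 was lowest. Timp3 lies inside Syn3 on the opposite strand and 1733 of its 8144 annotated exon bases overlap exons of Syn3, which was at 0.465 to 3.81 CPM.

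Timp4, the member of the family with the most restricted expression and a known product of heart muscle and fat, spread widely within both groups. Vehicle hearts gave 8.47, 11.3 and 16.7 CPM and treated hearts 20.0, 31.4 and 9.73 CPM. Setanaxib replicates 1 and 2 lay above all vehicle libraries and setanaxib replicate 3 lay among them. Means were 12.2 ± 4.20 and 20.4 ± 10.9 CPM (SD, n = 3), with a log2 fold change of 0.74 (standard error 0.45; adjusted p = 0.722 by edgeR). The estimate rested on single libraries, at 0.29 without setanaxib replicate 2 and 1.08 without setanaxib replicate 3 (edgeR adjusted p = 0.895 and 0.298). Summed adipocyte markers, 6 genes of which Plin4 made up most, were at 171 to 198 CPM with vehicle and 266 to 363 CPM with setanaxib, and their part in the result was not tested. Plin4 alone was at 363 and 301 CPM in setanaxib replicates 1 and 2. In vehicle replicate 2 and setanaxib replicate 1 every other gene of the list was at 0. The sum there was Plin4 alone, at 171 and 363 CPM, and is no measure of the other adipocyte genes. The other adipocyte genes were highest in setanaxib replicate 3, the treated heart with the least Timp4: Plin1 held 1148 estimated counts there, Retn 560, Lep 144 and Adipoq 12, and Cidec was at 50.2 CPM against at most 1.71 CPM elsewhere. Timp4 lies inside Syn2 on the opposite strand with 90 shared exon bases, and Syn2 was at 1.94 to 4.05 CPM.

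Timp2, which inhibits MMPs and, bound to Mmp14 at the cell surface, also helps to activate the Mmp2 proenzyme, was at 162, 126 and 174 CPM in vehicle hearts. Treated hearts gave 108, 118 and 180 CPM. The highest value of all belonged to setanaxib replicate 3 and the lowest to setanaxib replicate 1, so that treated hearts spanned the vehicle range. The log2 fold change was -0.19 (standard error 0.23; adjusted p = 0.882 by edgeR), and -0.44 without setanaxib replicate 3 (edgeR adjusted p = 0.324). It lay nearer to 0 without setanaxib replicate 1 (-0.055), setanaxib replicate 2 (-0.098) or vehicle replicate 3 (-0.093).

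Mmp2, gelatinase A, which cuts denatured and basement membrane collagen and is made mainly by fibroblasts, was the metalloproteinase of lowest p. It was at 97.7, 69.1 and 104 CPM in vehicle hearts and 58.4, 64.5 and 74.7 CPM in treated hearts. All setanaxib libraries were below vehicle replicates 1 and 3, and vehicle replicate 2 lay among them. The means were 90.3 ± 18.6 and 65.9 ± 8.22 CPM (SD, n = 3), a log2 fold change of -0.46 (standard error 0.18; adjusted p = 0.575 by edgeR). It was -0.62 without vehicle replicate 2, -0.34 without vehicle replicate 3 and -0.55 without setanaxib replicate 3.

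Mmp14, the membrane-bound collagenase that activates Mmp2, was steady in vehicle hearts at 32.6, 29.0 and 31.1 CPM. It was at 21.1, 26.7 and 30.4 CPM in treated hearts, of which the third lay inside the vehicle range. The log2 fold change was -0.24 (standard error 0.15; adjusted p = 0.719 by edgeR), at -0.12 without setanaxib replicate 1 and -0.37 without setanaxib replicate 3. Mmp15, its close relative in the membrane-type family, was the least variable member, with 97.2 to 114 CPM over all 6 libraries. Its group means were 102 ± 1.96 and 106 ± 8.41 CPM (SD, n = 3; log2 fold change 0.06, SE 0.09, edgeR adjusted p = 0.905), and the log2 fold change was 0.02 without setanaxib replicate 3 and 0.12 without setanaxib replicate 1.

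Mmp3, stromelysin, which cuts proteoglycans and laminins and can activate other proenzymes, was at 4.70, 4.13 and 5.59 CPM in vehicle hearts. Treated hearts gave 3.45, 2.85 and 4.11 CPM. The groups did not overlap, yet vehicle replicate 2 and setanaxib replicate 3 differed by less than either group's SD, with means of 4.81 ± 0.739 and 3.47 ± 0.627 CPM (SD, n = 3). The log2 fold change was -0.47 (standard error 0.20; adjusted p = 0.609 by edgeR), and -0.60 without setanaxib replicate 3.

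Mmp12, the elastase of macrophages, was at 1.93, 1.42 and 1.76 CPM in vehicle hearts, from 207 to 239 estimated counts. It was at 0.897 CPM in setanaxib replicate 2, from 118 estimated counts, and listed at 0 in setanaxib replicates 1 and 3. The log2 fold change of -2.50 had an SE of 1.73 (edgeR adjusted p = 0.762) and was -1.92 without setanaxib replicate 1 or 3. By limma-voom it was -6.12, past an unadjusted p of 0.05 but not the adjusted threshold (adjusted p = 0.396). A listed 0 can be a failed estimate as well as absence in such estimated counts, so Mmp12 has no mean and SD here. The gene shares 157 exon bases with Mmp1b on the opposite strand, which was at 0 in every library.

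Mmp9, gelatinase B, best known from neutrophils and macrophages, had no direction that held over the libraries. It was at 1.74, 2.04 and 0.941 CPM in vehicle hearts and 1.12, 1.10 and 2.88 CPM in treated hearts. Setanaxib replicate 3 alone was above the vehicle libraries, and the log2 fold change of 0.11 (standard error 0.49; adjusted p = 0.978 by edgeR) turned to -0.50 without it and to -0.16 without vehicle replicate 3. Of 8 neutrophil markers 4 could be tested, Ltf and Ly6g were at 0 in every library, and the list summed to 0.429 to 2.64 CPM with vehicle and 0.387 to 2.08 CPM with setanaxib. In setanaxib replicate 3, where Mmp9 was highest, the neutrophil sum was lowest and the lung and airway sum highest. Other libraries differed from that pattern. Vehicle replicate 2, with Mmp9 at 2.04 CPM, had the highest neutrophil sum and a lung and airway sum of 0.493 CPM. Vehicle replicate 3 had the lowest Mmp9 and a lung and airway sum of 27.1 CPM. The part of either cell source in Mmp9 was not tested.

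**Figure D2:**
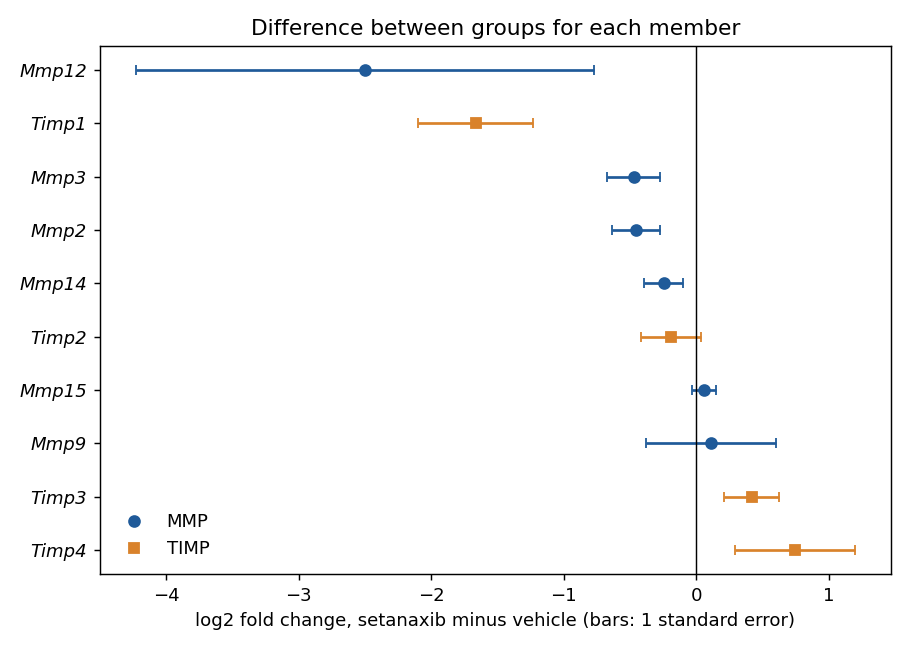
The log2 fold change of each member, setanaxib minus vehicle (horizontal axis), with 1 standard error from edgeR; circles are MMPs and squares TIMPs. Timp1 and Mmp12 lie farthest to the left, at -1.67 and -2.50, the latter with an SE of 1.73.

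Levels were compared between members as CPM per kilobase of coding-transcript exon, with exon lengths from GENCODE M21. Averaged over 6 libraries, Timp2 (39.0) and Timp3 (37.3) led, followed by Mmp2 (25.4), Mmp15 (20.3), Timp1 (8.92), Mmp14 (6.81), Timp4 (2.76), Mmp3 (2.30), Mmp9 (0.515) and Mmp12 (0.251). The ranges of neighbours in this order overlapped except for Mmp15 over Timp1 and Mmp3 over Mmp9. Timp2 exceeded Timp3 in 3 of 6 libraries and Timp4 exceeded Mmp3 in 2 of 6, and these values do not order either pair. Timp4 was below Mmp3 in every vehicle library and in setanaxib replicate 3. Timp1 exceeded Mmp14 in 4 of 6 libraries. It lay below Mmp14 in setanaxib replicates 1 and 3 (3.61 against 5.04 and 2.57 against 7.27). Timp3 exceeded Mmp2, and Mmp14 exceeded Timp4, in 6 of 6 libraries. The order was the same with the length of the longest coding transcript.

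On this scale the 4 inhibitors summed to 89.1 ± 11.3 with vehicle and 86.9 ± 15.6 with setanaxib (SD, n = 3), a difference smaller than the spread. The 6 metalloproteinases summed to 60.2 ± 6.45 and 50.9 ± 5.82, with vehicle replicate 2 (52.8) below setanaxib replicate 3 (56.8). Within the sum of the inhibitors the shares of Timp1 and Timp3 differed. Timp1 was 9.84%, 23.5% and 13.4% of the summed inhibitors in vehicle hearts and 4.73%, 8.37% and 2.45% in treated hearts. Timp3 was 38.2%, 31.0% and 37.5% with vehicle and 52.7%, 44.9% and 49.7% with setanaxib in the same order. Neither share overlapped between the groups, and the shares are tied to each other because they add up to the whole; Timp2, at 43.1% to 50.3% and 38.2% to 46.3%, overlapped. No test was made of these sums and shares.

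**Figure D3:**
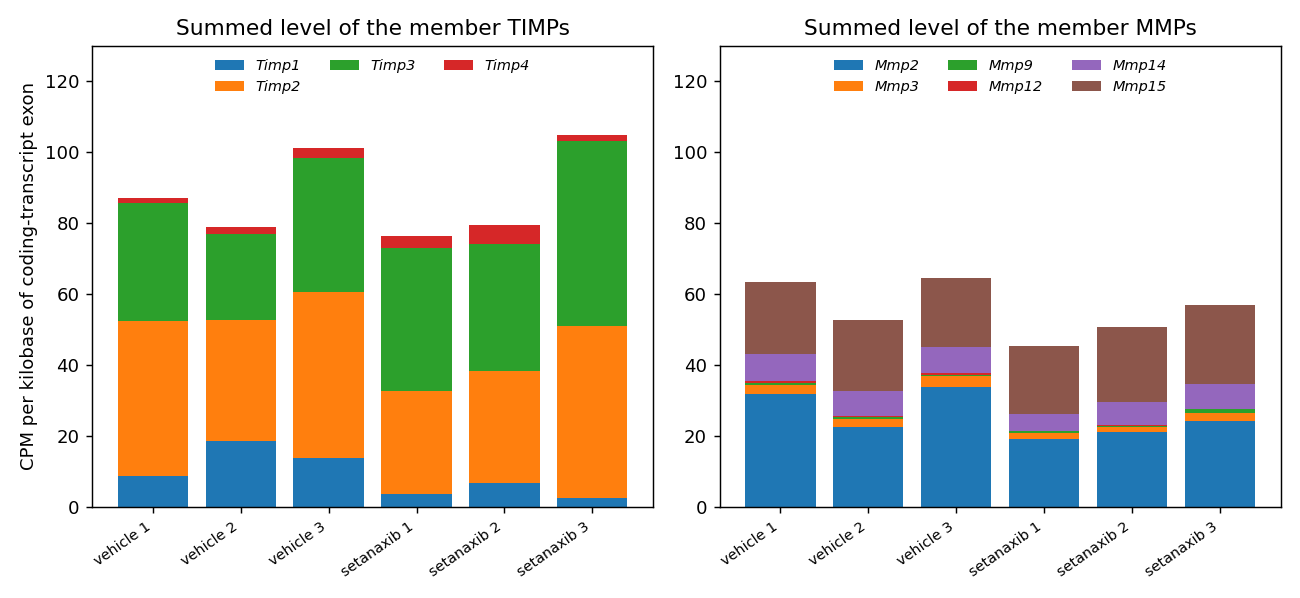
Stacked bars of CPM per kilobase of coding-transcript exon for the 4 TIMPs (left) and the 6 MMPs (right) in each library. The TIMP sums span 78.9 to 101 with vehicle and 76.4 to 105 with setanaxib, while the Timp1 segment is shorter in each setanaxib library than in each vehicle library.

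Pairs of enzyme and inhibitor were read as ratios of these per-length levels. Mmp2 to Timp2 was 0.726, 0.660 and 0.721 in vehicle hearts and 0.651, 0.659 and 0.500 in treated hearts. The vehicle values were higher, but vehicle replicate 2 and setanaxib replicate 2 were almost equal. Mmp14 to Timp2 averaged 0.180 ± 0.0227 and 0.175 ± 0.0256, and Mmp15 to Timp2 0.488 ± 0.0914 and 0.590 ± 0.117 (SD, n = 3), with overlapping groups. Mmp3 to Timp1 was 0.305, 0.124 and 0.228 with vehicle and 0.531, 0.238 and 0.886 with setanaxib, also overlapping, through vehicle replicate 1 and setanaxib replicate 2. Mmp9 to Timp1 spanned 0.0218 to 0.0640 and 0.0519 to 0.353. Mmp12 to Timp1 was 0.0192 to 0.0566 with vehicle, 0.0339 in setanaxib replicate 2 and 0 in setanaxib replicates 1 and 3.

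Markers of the cells that make these proteins also differed between libraries, and in bulk tissue fewer cells of a type and less RNA per cell cannot be told apart. Macrophage markers were lower for 7 of 8 genes, none of them at 0 in any library, and summed to 309 to 400 CPM with vehicle and 198 to 251 CPM with setanaxib. Cd163, the 1 that was higher, was at 12.6 to 16.5 CPM with vehicle and 11.8 to 17.5 CPM with setanaxib. Alveolar or foam-like macrophage markers, a separate list, were lower for 4 of 6 genes. Their sums overlapped, at 44.3 to 62.4 CPM and 19.4 to 54.3 CPM. Of all genes 48.4% were lower, and the marker lists were chosen with earlier results of these data known. Activated fibroblast markers were lower for 8 of 8 genes, with sums of 302 to 570 CPM and 157 to 312 CPM, and Cthrc1 was listed at 0 in setanaxib replicates 1 and 3. Acta2 made up much of that sum. It was at 134 to 207 CPM with vehicle, and at 182, 198 and 67.8 CPM in the treated hearts. General fibroblast markers were lower for 7 of 8 genes, with overlapping sums of 1511 to 2189 CPM and 1374 to 2511 CPM. Gsn, the 1 marker that was higher, made up most of these sums. It was at 770 to 1176 CPM with vehicle and 852 to 1676 CPM with setanaxib. Heart muscle markers were split, with 4 lower and 4 higher. Endothelial markers were lower for 4 of 6 genes, with overlapping sums of 702 to 812 CPM and 553 to 857 CPM. Without setanaxib replicate 3 the lower markers numbered 7 of 8 for macrophages, 7 of 8 for activated fibroblasts and 8 of 8 for fibroblasts. They numbered 6 of 6 for foam-like macrophages, 6 of 6 for endothelium and 2 of 8 for heart muscle. The median log2 fold change over all genes was -0.004 in that fit. Within the vehicle group Timp1 was highest in replicate 2, as were the macrophage markers (400 CPM), whereas the activated fibroblast markers were lowest there (302 CPM). Mmp2 and Timp2 were lowest in the replicate of each group, vehicle 2 and setanaxib 1, in which the general fibroblast sum was lowest. The part of any of these cell types in the members' differences was not tested.

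**Figure D4:**
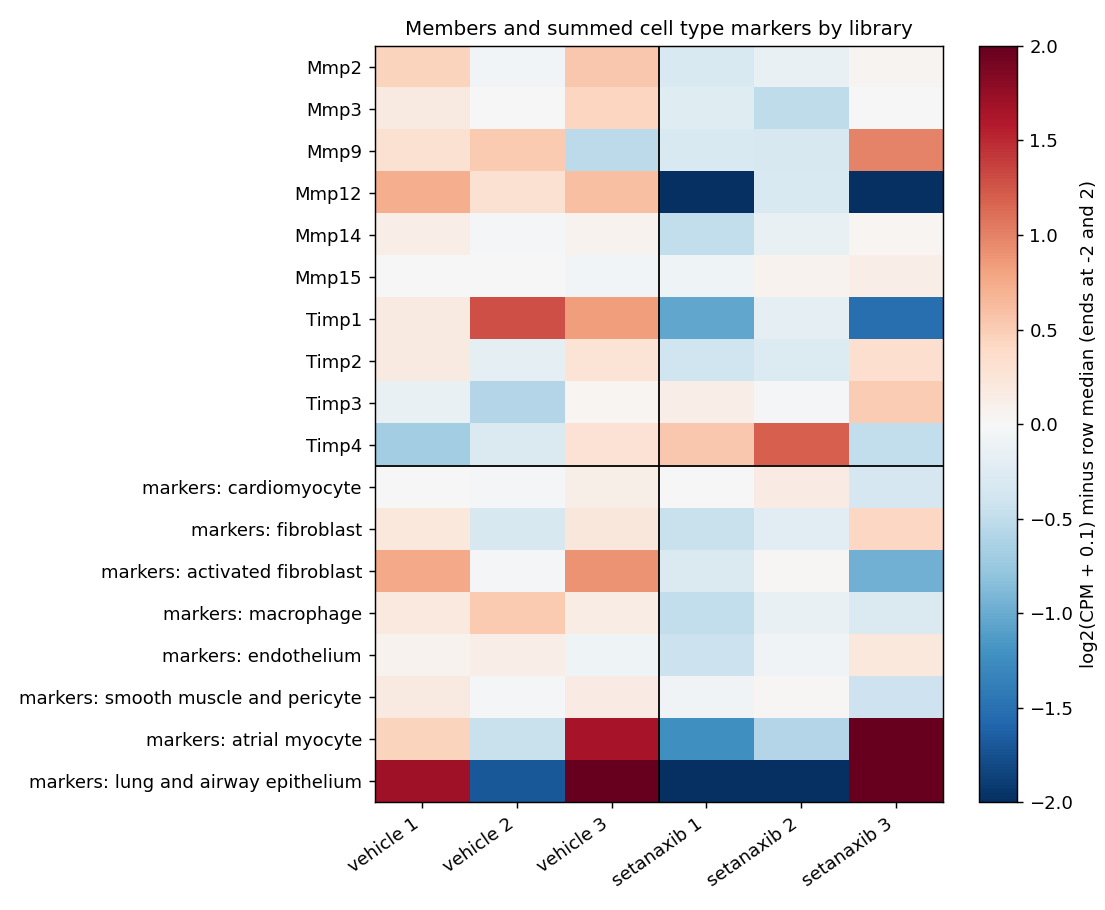
Colours show log2(CPM + 0.1) minus the row's median over 6 libraries, for the 10 members (above the line) and for the summed markers of 8 cell types (below), with vehicle libraries left of the vertical line. Setanaxib replicate 3 stands out in the atrial and lung rows, and Timp1 and Mmp12 are lower in its column and in that of setanaxib replicate 1.

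Many of the other MMP genes were at 0. Of 17 further MMP genes 7 were at 0 in every library, Mmp8 and Mmp27 reached at most 45 estimated counts, and 8 could be tested. Of these, 6 were lower and 2 higher with setanaxib, with a median log2 fold change of -0.17, and 0 had an unadjusted p under 0.05. Without setanaxib replicate 3, 9 could be tested, of which 8 were lower, with a median of -0.52. In that fit 1 was lower at an unadjusted p under 0.05, beside 7.91% of all genes. The 3 of lowest p were Mmp19, Mmp23 and Mmp17, whose log2 fold changes were -0.38 (SE 0.27), -0.30 (SE 0.33) and, for Mmp17, -0.18 (SE 0.22). Mmp13, a main collagenase of rodents, was at 0 to 0.728 CPM.

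Genes that activate, restrain or clear MMPs were mixed, with 13 of 19 tested lower, a median log2 fold change of -0.16 and 2 lower at an unadjusted p under 0.05 (4.69% of all genes). With setanaxib replicate 3 left out, 13 of 20 were lower, 4 of them at an unadjusted p under 0.05, where 7.91% of all genes were lower by that rule. Sparc, a collagen-binding matricellular protein, was at 361, 384 and 356 CPM in vehicle hearts and 231, 252 and 285 CPM in treated hearts. It was the 1 gene of the list that DESeq2 called (log2 fold change -0.52, SE 0.11; edgeR adjusted p = 0.331, DESeq2 adjusted p = 0.000113). Plau, the urokinase that starts the plasmin cascade upstream of MMPs, averaged 5.38 and 2.89 CPM (log2 fold change -0.89, SE 0.36; edgeR adjusted p = 0.587). Spock2, a matrix proteoglycan, was 1.10 higher on the log2 scale (SE 0.48) and was at 59.0 CPM in setanaxib replicate 3 against 10.3 to 24.6 CPM elsewhere, and its difference was 0.47 without that library. Reck, a membrane inhibitor of MMPs, and Furin, which cleaves the membrane-type proenzymes, lay at log2 fold changes of 0.03 with an SE of 0.37 for Reck and 0.12 with an SE of 0.11 for Furin.

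Among 20 matrix substrates of these enzymes, 18 were lower with setanaxib, with a median log2 fold change of -0.39. At an unadjusted p under 0.05, 10 were lower (4.69% of all genes), and the groups did not overlap for 10 (9.46% of all genes). Without setanaxib replicate 3 the counts were 18 lower, 12 of them at an unadjusted p under 0.05 (7.91% of all genes). There 1 was higher at that level, a direction that was not counted over all genes in that fit. DESeq2 called 6, all lower, beside 2.31% of all genes, and edgeR 0. Vcan, the proteoglycan versican, averaged 52.7 and 34.0 CPM (log2 fold change -0.63, SE 0.10) and Fbn1, fibrillin, 212 and 138 CPM (-0.62, SE 0.10), with edgeR adjusted p of 0.234 and 0.265. Col3a1, a fibrillar collagen, averaged 240 and 125 CPM (-0.94, SE 0.25). Dag1, dystroglycan, whose beta subunit gelatinases can cut, differed by 0.11 on the log2 scale (SE 0.15). The lists were made with earlier results of these libraries known, so their counts are not independent evidence of a direction.

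A list of 14 genes held ADAM and ADAMTS proteases, the Adam17 partners Rhbdf1 and Rhbdf2, and the shed proteins Tnf, Tnfrsf1a and Hbegf; 13 were lower, with a median log2 fold change of -0.25. At an unadjusted p under 0.05, 6 were lower (4.69% of all genes) and 0 higher, and the groups did not overlap for 7, all lower (9.46% of all genes). The counts were 11 and 7 without setanaxib replicate 3, for lower and for lower at an unadjusted p under 0.05, the latter beside 7.91% of all genes. The 3 of lowest p were Adam19, Rhbdf2 and Tnf, whose log2 fold changes were -0.97 (SE 0.28), -0.49 (SE 0.15) and, for Tnf, -1.24 (SE 0.41), at edgeR adjusted p of 0.450, 0.469 and 0.495. DESeq2 called 1 of the 14, Adam19 (adjusted p = 0.0310), beside 2.31% of all genes. Adam17 itself was at -0.27 on the same scale (SE 0.17).

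The genes whose log2 CPM most resembled each member were ranked by Pearson's r over the 6 libraries among 11305 genes. For Timp1 they were Ctu1, Clic5 and Adam11 (r = 0.996, 0.991 and 0.990), and 282 genes exceeded 0.9. For Mmp2 they were Ccnjl, Sfrp2, a secreted Wnt-binding protein of fibroblasts, and Bmp1, the procollagen C-proteinase (0.995, 0.990 and 0.990), and for Mmp14 Heyl, Asap3 and Clmp (0.997, 0.997 and 0.996). Timp2 went with C1ra, Ltbp3 and Ptgis (0.996, 0.994 and 0.994), and Timp3 with Srrm2, Glis3 and Oscp1 (0.997, 0.987 and 0.984). Timp4 went with Ascc1, Fitm2, a lipid droplet protein, and Egflam (0.990, 0.977 and 0.976). Mmp3 went with Tgtp1, Rtl8c and Tgtp2 (0.982, 0.981 and 0.972), and Mmp15 with Prkab1, Tab1 and Pot1a (0.998, 0.993 and 0.988). Mmp9 went with Scap, Snd1 and Rnf26 (0.992, 0.986 and 0.984) and Mmp12 with Svil and Abcb1a (0.993 and 0.991). Mmp12 was listed at 0 in setanaxib replicates 1 and 3, and its r values rest largely on those libraries. With so few libraries, 34 to 592 genes exceeded 0.9 for each member, and these values describe the libraries only.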

How the data were processed

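The 6 heart libraries were profiled by RNA sequencing, from 1 µg of total RNA per library and paired reads of 150 bases, per the labels' protocols. The authors deposited estimated counts for each gene, whole numbers whose totals differ between libraries; no rounding was needed, and the design, which had allowed for this unit, was kept. The submitters' processing notes name the build GRCm39 and the tools STAR 2.5.4b, DESeq2 1.42.0, featureCounts 2.0.1 and FastQC 0.11.9. featureCounts is a counting tool, whereas row and column names have the form of StringTie output, per the file headers; these sources differ, and no strand setting is given in the sources used here. Values of genes that overlap others are uncertain for that reason.

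Genes were filtered with edgeR's (4.0.16) filterByExpr at a minimum of 10 counts and scaled by TMM. Setanaxib was compared with vehicle by the quasi-likelihood F test in R 4.3.3, two-sided, Benjamini-Hochberg adjusted over all 20472 genes, at a threshold of 0.05; standard errors came from the F statistic. The fit was tested on simulated data. DESeq2 (1.42.0), limma-voom (3.58.1), other scalings and filters, and leaving out each library were alternatives. log2 CPM used a prior count of 2.

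Replicates were numbered by accession order, so a number pairs nothing. All 10 members are named; of each of 4 pathway lists the 3 genes of lowest p, and for each member the 3 genes of highest r with a mean log2 CPM of at least 1, predicted genes left out; 1 gene that the rule names is not reported here. Other genes named in the lists were chosen after their values were seen. Members and lists were chosen with earlier results of these data known. Exon lengths and overlaps are from GENCODE M21 on GRCm38, matched by identifier. A protein table was not used here.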

Additional observations from a re-analysis of the deposited data

How the results depend on the processing

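Direction was kept by 9 of the 10 members in all 13 alternatives each. Mmp9 was the exception, with a log2 fold change between -0.50 and 0.35 over the fits without 1 library. No member passed the threshold in any fit other than DESeq2's, which called 1, Timp1. Over all alternatives the log2 fold change of Timp1 lay between -2.13 and -1.37, with adjusted p from 0.0137 to 0.994. Of all genes, the 1 call of edgeR became 505 with DESeq2 (188 higher, 317 lower) and 0 with limma-voom, and lay between 0 and 1 when 1 library was left out. At an unadjusted p under 0.05, Timp1 was lower in every fit, Mmp2 in 9 of 14. Mmp12 moved to -6.12 with limma-voom. The value of Mmp12 without setanaxib replicate 2 compares with a group listed at 0 and is no estimate of size. The cause of these differences was not tested. Low counts limit Mmp9 and Mmp12, both at 380 or fewer estimated counts in each library. Timp1 and Mmp3 reached down to that range in some libraries. Timp1 was at 301 to 776 estimated counts with setanaxib and 922 to 2403 with vehicle, and Mmp3 at 375 to 761 over all libraries. The order of levels per length under another exon length, the members at an unadjusted p in each fit and the list counts without setanaxib replicate 3 were chosen after seeing the data.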
